A study of Mus musculus with 2 samples.

Results

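Wnt signalling was described here through 10 genes chosen by symbol from the 27998 genes that both matrices list. They were the ligands Wnt3, Wnt3a, Wnt4 and Wnt6, the agonist Rspo3, the antagonist Dkk1, the target genes Sp5, Axin2 and Lef1, and Lgr5, a receptor for R-spondins. Every member was found in both matrices. The series held 2 droplet single-cell RNA libraries (10x Genomics). The first was made from AB2.2 cells, an established mouse embryonic stem cell line, in which PHD2 had been knocked out (PHD2-KO), and the other from wild type (WT) AB2.2 cells. Both had been differentiated toward mesendoderm for 4 days. Egln1 encodes PHD2, an enzyme that hydroxylates HIF alpha subunits when oxygen is present. The sources used here name neither the altered part of Egln1 nor the number of clones.

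Wnt ligands are secreted proteins that bind Frizzled and Lrp5 or Lrp6 receptors and keep beta-catenin from being degraded, so that it can act with Tcf and Lef factors on target genes. R-spondins raise the number of receptors at the cell surface, whereas Dkk1 blocks the Lrp co-receptor. In the mouse embryo this pathway is needed to form the primitive streak, where T (Brachyury) is itself a Wnt target, and Mesp1 marks the mesoderm that leaves the streak.

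After filtering, 6927 PHD2-KO and 8515 WT cells remained, with medians of 20999 and 20434 unique molecular identifiers (UMIs) per cell, and 22 cell barcodes occurred in both libraries. A gene's level is its UMI sum over the cells described, scaled to the UMI total of those cells (CPM), and its 95% interval covers counting error only. Each group was 1 library, so no difference has a replicate check and no p-value is given. Egln1 was at 13.6 CPM in PHD2-KO cells and 18.2 CPM in WT cells, which does not check the knockout while the altered part is unknown. Markers of pluripotent stem cells summed to 814 CPM in PHD2-KO cells and 833 CPM in WT cells, and those of the primitive streak to 694 and 62.3 CPM. Dppa5a gave 595 CPM of each pluripotency sum, and single markers differed in both directions. Pou5f1 (113 and 143 CPM) and Sox2 (25.1 and 38.4 CPM) were lower in PHD2-KO cells. Nanog (45.5 and 35.1 CPM) and Zfp42 (34.3 and 20.8 CPM) were higher. Markers of feeder fibroblasts summed to 3.66 and 2.61 CPM and those of visceral endoderm to 1.48 and 2.07 CPM, with Postn and Ttr at 0 in PHD2-KO cells. At a fixed depth of 14000 UMIs per cell, to which 6281 PHD2-KO and 7738 WT cells were thinned, T was detected in 81.7% of PHD2-KO cells and 6.49% of WT cells, and Mesp1 in 33.2% and 0.517%.

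Among the ligands, Wnt3 and Wnt6 were higher in the PHD2-KO library and Wnt4 was not. Wnt3 (ENSMUSG00000000125, mm10 chromosome 11, 103774150 to 103817957, plus strand), the ligand that the mouse embryo needs to form a streak, was at 34.7 CPM in PHD2-KO cells (5478 UMIs, interval 33.8 to 35.7) and 12.1 CPM in WT cells (2439 UMIs, 11.6 to 12.6), 2.87-fold higher (2.73 to 3.01). Wnt6 (ENSMUSG00000033227, chromosome 1, 74771892 to 74785322, plus strand) was at 28.1 CPM in PHD2-KO cells and 6.69 CPM in WT cells, 4.20-fold higher (3.95 to 4.47). Wnt4 (ENSMUSG00000036856, chromosome 4, 137277489 to 137299726, plus strand), a ligand best known from kidney and gonad development, was at 20.3 CPM in PHD2-KO cells and 23.5 CPM in WT cells, 0.865-fold (0.827 to 0.905). Wnt4 was thus the member of the set that was nearly level between the libraries. Wnt3a (ENSMUSG00000009900, chromosome 11, 59248033 to 59290752, minus strand), which the embryo uses in posterior mesoderm, gave 36 UMIs in PHD2-KO cells and 4 in WT cells (0.228 and 0.0199 CPM, a ratio of 11.5, interval 4.12 to 44.5). It lay far below the 5 CPM taken as measured.

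Shares of cells followed the levels. After thinning, Wnt3 was detected in 35.8% of PHD2-KO cells and 14.8% of WT cells (47.7% and 22.9% before thinning). Wnt6 was detected in 22.5% of PHD2-KO cells and 6.95% of WT cells, and Wnt4 in 17.2% and 19.9% (29.8% and 10.4%, and 23.2% and 27.3%, before thinning). A background for these shares came from naive-high cells, the top 5% of each library by summed UMIs of naive pluripotency genes (321 PHD2-KO and 387 WT cells, of which 73 and 114 lay within 10% of the limit). Dppa5a alone gave 595 of the 696 CPM that these genes summed to in PHD2-KO and 595 of 667 CPM in WT. The choice of cells thus rests mostly on Dppa5a. T was detected in 48.9% of the PHD2-KO naive-high cells, so they are a poor background in that library for every member. The median depths of naive-high cells before thinning were 24924 and 21842 UMIs, against 21851 and 21072 over all thinned cells. In naive-high cells Wnt3 was detected in 13.4% of PHD2-KO and 8.01% of WT cells, Wnt6 in 9.03% and 5.17%, and Wnt4 in 5.92% and 10.6%. The ligand shares over all cells were above the intervals of the naive-high cells of their own library, except that of Wnt6 in WT, which lay within 3.18% to 7.87%. At least 1 of the ligands Wnt3, Wnt4 and Wnt6 was detected in 57.2% of PHD2-KO cells (56.0 to 58.4) and 34.8% of WT cells (33.8 to 35.9).

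**Figure D1:**
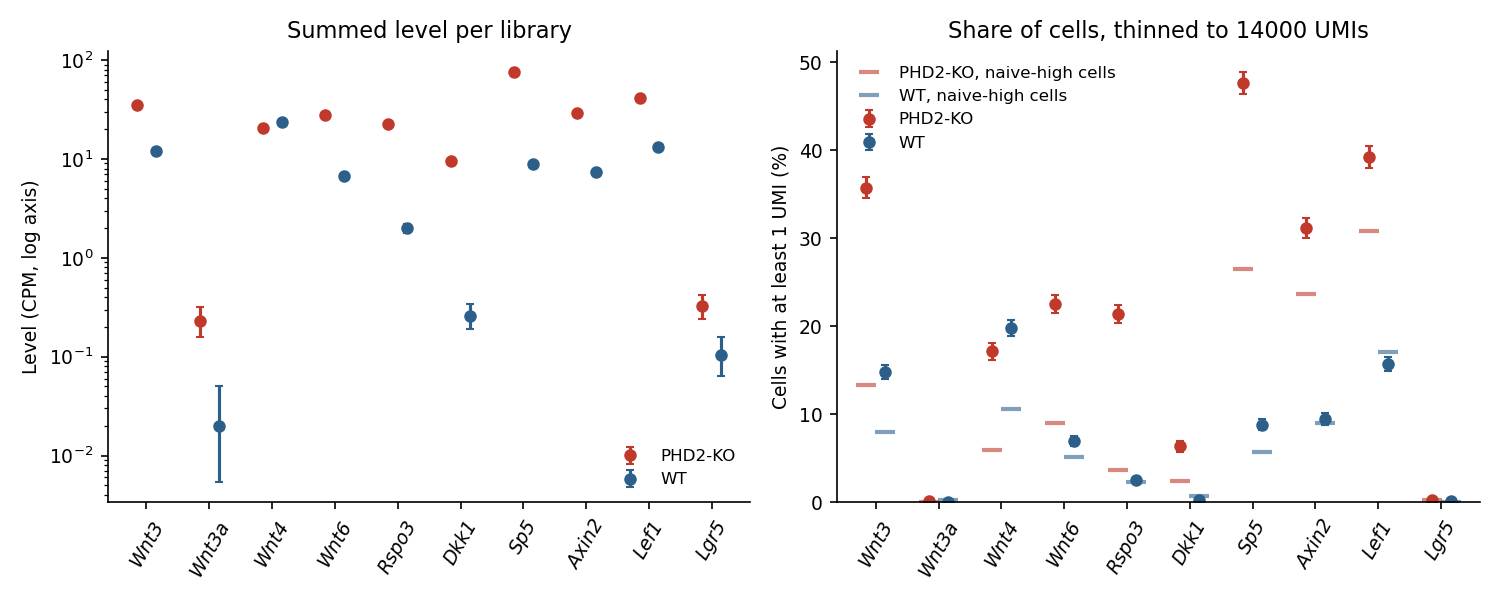
Left, level of each member in CPM on a log axis in the PHD2-KO library (red) and the WT library (blue). Right, percent of cells with at least 1 UMI after thinning to 14000 UMIs, with short bars for naive-high cells of each library. Vertical lines are 95% counting intervals. Wnt4 is the member whose PHD2-KO point lies below its WT point, at 20.3 CPM in PHD2-KO and 23.5 CPM in WT, and Dkk1 has the widest gap among members above 5 CPM, at 9.51 CPM in PHD2-KO and 0.258 CPM in WT.

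Rspo3 and Dkk1, which act on the receptor in opposite ways, were both far higher in the PHD2-KO library. Rspo3 (ENSMUSG00000019880, chromosome 10, 29452416 to 29535867, minus strand) was at 22.5 CPM in PHD2-KO cells and 1.99 CPM in WT cells, 11.4-fold higher (10.2 to 12.6). It was detected in 21.4% of PHD2-KO cells and 2.56% of WT cells (27.2% and 4.23% before thinning), and in 3.74% and 2.33% of their naive-high cells. The WT share was that of its naive-high cells within counting error and is not read as above that background. This does not show that Rspo3 was silent in WT cells. Dkk1 (ENSMUSG00000024868, chromosome 19, 30545863 to 30549665, minus strand) was at 9.51 CPM in PHD2-KO cells (1500 UMIs) and 0.258 CPM in WT cells (52 UMIs), 36.8-fold higher (27.9 to 49.6). It was detected in 6.38% of PHD2-KO cells and 0.271% of WT cells (8.45% and 0.458% before thinning), and in 2.49% and 0.775% of naive-high cells, so the WT share was not above its background. Few cells carried much of it: after thinning, PHD2-KO cells with Dkk1 had a mean of 2.13 UMIs and up to 19, and no thinned WT cell had more than 1.

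Dkk1 and Sp5 were the members with a Tcf and Lef motif in the window before a RefSeq start, so their sequences are shown. Promoter windows (RefSeq, GRCm38.p6, the mm10 assembly) were found for 8 of the 10 members, and the 250 bases before each start were searched on both strands for CTTTGAT and CTTTGAA. Of 32851 windows in the genome, 7.48% held at least 1 of these motifs. The Dkk1 window (chr19:30549497-30549746, minus strand) held CTTTGAA from 117 to 111 bases before its RefSeq start, which puts the motif inside the wider gene extent given above. The Sp5 window (chr2:70474673-70474922, plus strand) held CTTTGAT from 104 to 98 bases before the start, outside the gene extent. The windows of Wnt3, Wnt3a, Wnt4, Wnt6 and Axin2 and the 4 windows of Lef1 held neither. A match describes these letters and does not show that a factor binds there. The motif is in capitals:
Dkk1: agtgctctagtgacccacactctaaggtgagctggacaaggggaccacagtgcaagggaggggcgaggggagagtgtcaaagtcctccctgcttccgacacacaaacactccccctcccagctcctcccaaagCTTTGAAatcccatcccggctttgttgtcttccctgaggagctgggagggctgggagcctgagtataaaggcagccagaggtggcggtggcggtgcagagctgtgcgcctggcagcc
Sp5: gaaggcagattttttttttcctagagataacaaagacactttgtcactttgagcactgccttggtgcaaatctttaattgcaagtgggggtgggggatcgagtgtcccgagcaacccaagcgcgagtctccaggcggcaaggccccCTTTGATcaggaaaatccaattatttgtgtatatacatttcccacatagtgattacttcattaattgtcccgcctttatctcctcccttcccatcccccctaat

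The target genes were higher in the PHD2-KO library. Sp5 (ENSMUSG00000075304, chromosome 2, 70474923 to 70477729, plus strand), a zinc finger factor that Wnt signals induce directly, was at 75.6 CPM in PHD2-KO cells (11931 UMIs) and 8.88 CPM in WT cells (1790 UMIs), 8.51-fold higher (8.10 to 8.95). Axin2 (ENSMUSG00000000142, chromosome 11, 108920349 to 108950783, plus strand), which feeds back on the destruction complex, was at 29.4 CPM in PHD2-KO cells and 7.40 CPM in WT cells, 3.97-fold higher (3.75 to 4.21). Lef1 (ENSMUSG00000027985, chromosome 3, 131110471 to 131224356, plus strand), a nuclear partner of beta-catenin, was at 41.5 CPM in PHD2-KO cells and 13.3 CPM in WT cells, 3.11-fold higher (2.98 to 3.26). Lgr5 (ENSMUSG00000020140, chromosome 10, 115450311 to 115587780, minus strand) gave 51 UMIs in PHD2-KO cells and 21 in WT cells (0.323 and 0.104 CPM) and was not measured at 5 CPM.

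The shares of the target genes in naive-high cells were not low in PHD2-KO, so these cells are a poor background there: T itself was detected in 48.9% of PHD2-KO and 2.07% of WT naive-high cells. Sp5 was detected in 47.6% of PHD2-KO cells and 8.81% of WT cells, Axin2 in 31.1% and 9.49%, and Lef1 in 39.3% and 15.7% (57.1% and 13.1%, 42.6% and 14.8%, and 50.5% and 23.3% before thinning). In naive-high cells the shares were 26.5% in PHD2-KO and 5.68% in WT for Sp5, 23.7% and 9.04% for Axin2, and 30.8% and 17.1% for Lef1. The WT shares of Axin2 and Lef1 were those of WT naive-high cells within counting error and are not read as a difference between those cells. Within the PHD2-KO library the naive-high level was 74.8% of that in the other cells for Axin2 and 74.4% for Lef1. It was 52.5% for Sp5, 34.4% for Wnt3, 30.8% for Wnt4, 28.5% for Wnt6, 19.7% for Dkk1 and 11.4% for Rspo3, beside 29.0% for T and 10.2% for Mesp1. These percents differed between genes beyond counting error (for Axin2 60.4 to 91.6 and for Rspo3 6.06 to 19.5).

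Of the 8 members at 5 CPM or more in either library, 7 were at least 1.5-fold higher in PHD2-KO cells and 0 lower, with Wnt4 between. Over all 8540 such genes 11.8% were higher and 2.35% lower by that fold. The median log2 ratio (pseudocount of 1 CPM) was 1.89 over the 8 members and 0.16 over all genes. The members were chosen with earlier results of these data known, which limits this comparison. Dkk1 and Rspo3 reached 5 CPM through the PHD2-KO library alone, so for them the count only restates their fold. Scaling by median-of-ratios size factors moved every log2 ratio by -0.25 and left 7 members higher.

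Both libraries held cells with a low share of UMIs from chromosome 8, and the PHD2-KO library held cells with a high share from chromosome 11. High chromosome 8 share was found in 57.3% of PHD2-KO and 84.3% of WT kept cells. No member lies on chromosome 8. In cells of low share Wnt4 was at 23.5 CPM in PHD2-KO and 47.5 CPM in WT, 0.494-fold (0.460 to 0.531), and in cells of high share at 17.9 and 19.1 CPM, 0.938-fold (0.883 to 0.996). The near-equal Wnt4 level of the libraries thus held for the cells of high share. Dkk1 was 70.6-fold higher in PHD2-KO cells of low share (32.3 to 193, from 6 WT UMIs) and 23.8-fold higher in those of high share (17.6 to 32.9). Sp5 was 5.16-fold higher in cells of low share and 8.86-fold higher in those of high share. The same 7 genes were at least 1.5-fold higher in each, and Wnt4 was past 1.5-fold lower in the cells of low share. The 723 PHD2-KO cells of high chromosome 11 share (10.4%) had Wnt3 at 47.9 CPM against 32.9 CPM in the other PHD2-KO cells, and Axin2 at 41.5 against 27.7 CPM, while Wnt4 was at 9.87 against 21.8 CPM. Wnt3, Wnt3a and Axin2 are the members on chromosome 11. Without those cells Wnt3 was 2.71-fold higher in PHD2-KO than in WT.

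The members split into distinct courses when PHD2-KO cells were ordered by T. Among cells with 0 Mesp1 UMIs, the 1967 cells with 4 or more T UMIs were compared with the 801 cells with 0. Of 8 measured members 3 were at least 1.5-fold higher in the T-high cells (Rspo3, Sp5 and Wnt6) and 2 lower (Wnt4 and Dkk1), where 3.66% of 8738 genes were higher and 3.78% lower. Rspo3 reached 5 CPM in T-high cells alone and Dkk1 in cells without T alone, so for them the count only restates their fold. Rspo3 was at 25.9 CPM in T-high cells and 4.19 CPM in cells without T, 6.17-fold higher (4.59 to 8.47). Its level of 4.19 CPM (3.08 to 5.57) overlapped the 2.89 CPM (1.54 to 4.95) of naive-high cells. Wnt4 was at 12.1 CPM in T-high cells and 32.1 CPM in cells without T, 0.377-fold (0.324 to 0.438). Dkk1 was at 2.58 CPM in T-high cells and 8.83 CPM in cells without T, 0.292-fold (0.212 to 0.400). So the agonist and the antagonist differed in opposite directions along T.

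The other ligand and target genes differed less with T. Sp5 was at 78.0 CPM in T-high cells and 47.7 CPM in cells without T (1.63-fold, 1.49 to 1.80), and Wnt6 at 31.6 and 19.9 CPM (1.59-fold, 1.37 to 1.85). Both calls ended when cells were thinned to 8000 UMIs, at 1.39-fold and 1.45-fold. Wnt3 was 1.44-fold, Axin2 1.29-fold and Lef1 1.25-fold higher in T-high cells, all within the 1.5-fold limit. In cells of low chromosome 8 share Rspo3 was 9.72-fold and in those of high share 4.52-fold higher in T-high cells, and Dkk1 was 0.191-fold and 0.401-fold. Wnt4 was 0.319-fold and 0.399-fold. In low-share cells the Wnt6 call ended, at 1.21-fold, and Lef1 passed the limit, at 1.72-fold, and in high-share cells the Sp5 call ended, at 1.48-fold. Wnt3 passed the limit in high-share cells, at 1.58-fold, and without the cells of high chromosome 11 share, at 1.53-fold.

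Over the 4 bins of T, Rspo3 and Wnt4 changed at each step, while Dkk1 was lower from 4 T UMIs on. With 0 Mesp1 UMIs and 0, 1 to 3, 4 to 8, and 9 or more T UMIs, Wnt4 was at 32.1, 25.9, 14.5 and 8.41 CPM. Over the same bins Rspo3 was at 4.19, 11.6, 20.7 and 33.7 CPM. Dkk1 was at 8.83, 7.35, 2.83 and 2.19 CPM. Wnt4 was detected in 26.0%, 22.0%, 15.4% and 9.48% of these cells, and Rspo3 in 5.24%, 11.3%, 19.5% and 30.0%. Dkk1 was detected in 40 of 801, 49 of 1428, 29 of 1186 and 20 of 781 cells, so its level rests on few cells in each bin. The share of low chromosome 8 cells over these bins was 31.96%, 32.9%, 39.4% and 49.6%.

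**Figure D2:**
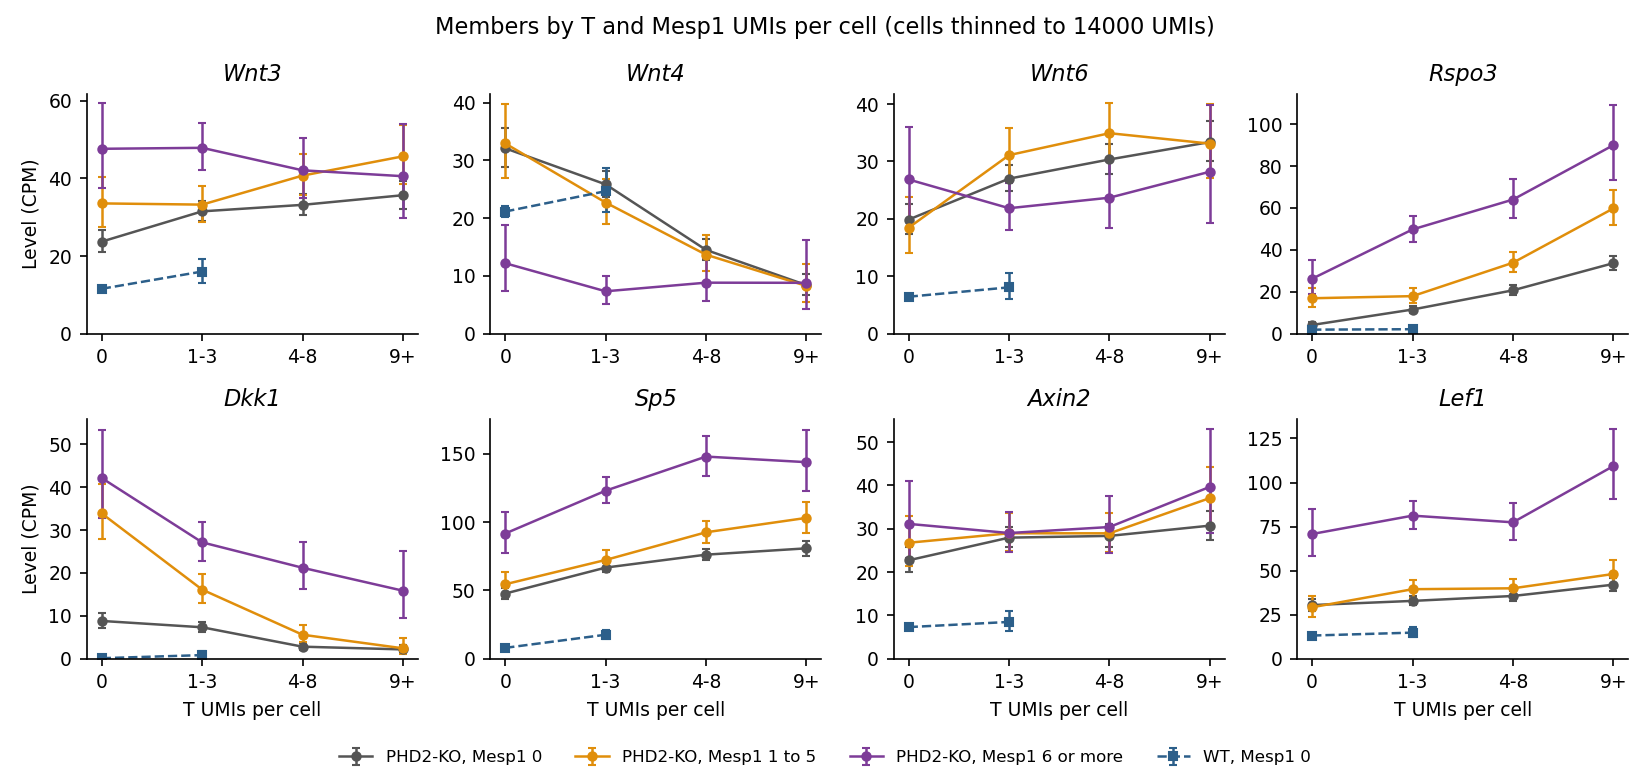
Level in CPM of the 8 measured members by T UMIs per cell (bins 0, 1 to 3, 4 to 8, and 9 or more), in cells thinned to 14000 UMIs. Lines are PHD2-KO cells with 0, 1 to 5, and 6 or more Mesp1 UMIs, and WT cells with 0 Mesp1 UMIs (dashed, the bins with at least 50 cells), and vertical lines are 95% counting intervals. In cells with 0 Mesp1 UMIs Wnt4 and Dkk1 lie lower toward high T and Rspo3 higher. With 6 or more Mesp1 UMIs Wnt4 is lowest at 1 to 3 T UMIs, at 7.35 CPM. In every T bin Rspo3, Dkk1, Sp5 and Lef1 are highest in cells with 6 or more Mesp1 UMIs.

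Among PHD2-KO cells with T, those high in Mesp1 had higher levels of Dkk1, Rspo3, Lef1 and Sp5. Among PHD2-KO cells with at least 1 T UMI, the 662 cells with 6 or more Mesp1 UMIs were compared with the 3395 cells with 0. Of 8 measured members 4 were at least 1.5-fold higher in Mesp1-high cells and 1 lower, where 4.29% of 8675 genes were higher and 10.7% lower. Dkk1 reached 5 CPM in Mesp1-high cells alone, so for it the count only restates its fold. Dkk1 was at 24.0 CPM in Mesp1-high cells and 4.59 CPM in cells without Mesp1, 5.22-fold higher (4.31 to 6.32), and was detected in 17.7% and 2.89% of them. Rspo3 was at 59.0 CPM in Mesp1-high cells and 19.8 CPM in cells without Mesp1, 2.97-fold higher (2.67 to 3.31), in 46.5% and 18.5% of them. Both were thus higher with Mesp1, although they differed in opposite directions along T.

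Lef1 was at 83.5 CPM in Mesp1-high cells and 36.0 CPM in cells without Mesp1 (2.32-fold, 2.13 to 2.53), and Sp5 at 133 and 73.2 CPM (1.82-fold, 1.70 to 1.94). Axin2, in contrast, was at 30.8 CPM in Mesp1-high cells and 28.7 CPM in cells without Mesp1 (1.07-fold, 0.938 to 1.22), a difference within counting error. The 3 target genes therefore did not move together with Mesp1. Wnt4 was at 7.98 CPM in Mesp1-high cells and 17.9 CPM in cells without Mesp1, 0.446-fold (0.347 to 0.567). Wnt3 was 1.37-fold (1.23 to 1.52) and Wnt6 0.783-fold (0.675 to 0.904). Low chromosome 8 share was found in 70.8% of the Mesp1-high cells and 39.0% of those without Mesp1. Within cells of low share Dkk1 was 3.93-fold, Lef1 2.44-fold, Rspo3 2.18-fold and Sp5 1.66-fold higher in Mesp1-high cells, and within cells of high share 7.06-fold, 1.92-fold, 3.87-fold and 1.82-fold, so the 4 calls were found on both sides. Wnt3 passed the limit in cells of high share alone, at 1.56-fold.

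When T and Mesp1 bins were crossed into 12 states, Dkk1 and Rspo3 peaked at opposite ends of T. Dkk1 was highest in cells with 6 or more Mesp1 UMIs and 0 T UMIs, at 42.1 CPM (32.8 to 53.3), and lowest with 9 or more T UMIs and 0 Mesp1 UMIs, at 2.19 CPM (1.41 to 3.27). Rspo3 was highest with 9 or more T UMIs and 6 or more Mesp1 UMIs, at 89.9 CPM (73.3 to 109), and lowest with 0 of both, at 4.19 CPM. Lef1 was highest in the same state as Rspo3, at 109 CPM (90.9 to 130), above the next state at 81.2 CPM. Wnt4 was lowest with 1 to 3 T and 6 or more Mesp1 UMIs, at 7.35 CPM (5.23 to 10.0). For the other 7 measured members the interval of the highest state overlapped that of the next. Axin2 spanned the narrowest range, from 22.7 to 39.7 CPM (1.75-fold), and Rspo3 the widest (21.5-fold). The 117 cells with 6 or more Mesp1 and 0 T UMIs were 1.86% of PHD2-KO cells and held 8.06% of its Dkk1 UMIs, whereas the 781 cells with 9 or more T and 0 Mesp1 UMIs were 12.4% of cells and held 2.80%.

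Cells in the same T and Mesp1 bins were then compared between the libraries, since their T and Mesp1 shares differ so widely. Equal bins do not make the cells alike in other genes. In cells with 0 T and 0 Mesp1 UMIs (801 PHD2-KO and 7198 WT cells), 7 of 7 measured members were at least 1.5-fold higher in PHD2-KO, where 14% of 8531 genes were higher and 1.61% lower. Dkk1 reached 5 CPM in the PHD2-KO cells alone, so for it the count only restates its fold. Sp5 was at 47.7 CPM in PHD2-KO cells and 8.02 CPM in WT cells, 5.95-fold higher (5.32 to 6.65). Dkk1 was at 8.83 CPM in PHD2-KO cells (99 UMIs) and 0.149 CPM in WT cells (15 UMIs), a ratio of 59.3 (34.3 to 110). Its 99 UMIs came from 40 of the 801 PHD2-KO cells. Those 40 cells had the streak genes Mixl1 at 105 CPM and Eomes at 111 CPM, although T and Mesp1 were at 0. The difference in these Wnt targets was thus present in cells without a T or Mesp1 UMI at this depth. Axin2 was 3.11-fold, Wnt6 3.08-fold, Lef1 2.31-fold and Wnt3 2.05-fold higher in PHD2-KO cells of this state. Wnt4 was at 32.1 CPM in PHD2-KO cells and 21.2 CPM in WT cells, 1.52-fold higher (1.35 to 1.70), and another random thinning gave 1.46-fold, under the limit.

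Some of these values depended on the chromosome 8 share, low in 31.96% of the PHD2-KO and 15.5% of the WT cells of this state. Among cells of low share Wnt4 was at 44.6 CPM in PHD2-KO and 43.5 CPM in WT (1.03-fold, 0.858 to 1.22), which ended its call. Among cells of high share it was at 26.2 and 17.0 CPM (1.54-fold). Rspo3, under 5 CPM in this state, was at 4.19 CPM in PHD2-KO cells and 1.95 CPM in WT cells (2.14-fold, 1.53 to 2.96). In cells of low share its direction turned, with 3.35 CPM in PHD2-KO and 3.83 CPM in WT (0.873-fold, 0.428 to 1.64, from 12 and 60 UMIs). Sp5 was 3.13-fold higher in PHD2-KO cells of low share and 7.11-fold higher in those of high share. For Dkk1 the cells of low share gave 55 UMIs in PHD2-KO and 1 in WT, a ratio of 240.2 (41.4 to 9658), and those of high share 44 and 14 (35.1-fold, 18.9 to 69.3).

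**Figure D3:**
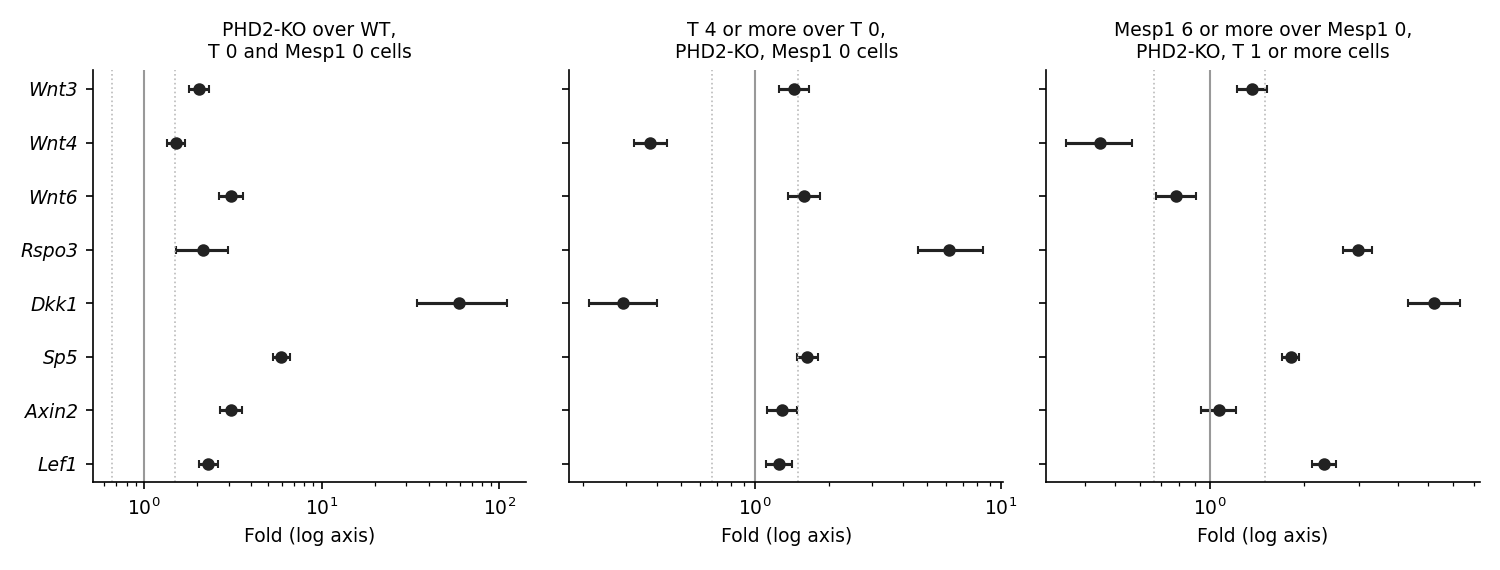
Fold of each measured member on a log axis in 3 contrasts of thinned cells, with 95% counting intervals. From left to right these are PHD2-KO over WT in cells with 0 T and 0 Mesp1 UMIs, 4 or more over 0 T UMIs, and 6 or more over 0 Mesp1 UMIs. Dotted lines mark 1.5-fold in either direction. Wnt4 lies right of 1 in the first panel, at 1.52, and left of 1 in the others, at 0.377 and 0.446, and Dkk1 changes side between the panels for T (0.292) and Mesp1 (5.22).

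WT cells with T were too few for a full course: 497 WT cells had 1 to 3 T UMIs, 5 had 4 to 8, and 0 of 7738 had more, which allows a share of up to 0.0388%. Among cells with 1 to 3 T and 0 Mesp1 UMIs (1428 PHD2-KO and 495 WT cells) 7 of 8 measured members were at least 1.5-fold higher in PHD2-KO, where 9.89% of genes were higher and 2.22% lower. Rspo3 and Dkk1 reached 5 CPM in the PHD2-KO cells alone, so for them the count only restates their fold. Wnt4 was level there, at 25.9 CPM in PHD2-KO and 24.7 CPM in WT cells (1.05-fold, 0.880 to 1.25). Within WT, Sp5 was the measured member past 1.5-fold between cells with 1 to 3 and 0 T UMIs, at 17.6 and 8.02 CPM (2.20-fold, 1.80 to 2.66), where 0.831% of genes were higher and 0.273% lower. Within PHD2-KO the same contrast gave 1.40-fold for Sp5 (66.7 and 47.7 CPM), and Rspo3 was the member past the limit, at 11.6 and 4.19 CPM (2.76-fold, 2.01 to 3.86), where 0.707% of genes were higher and 1.5% lower. In PHD2-KO, Rspo3 reached 5 CPM in the cells with 1 to 3 T UMIs alone. Rspo3 in WT was at 2.16 and 1.95 CPM in these states. The difference between the libraries in these folds was not tested.

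Eomes, Cdx2 and Gsc were used to split streak-state cells further, and Dkk1 and Rspo3 differed in opposite directions with Cdx2 but not with the others. The splits were made among PHD2-KO cells with at least 1 T UMI and 0 Mesp1 UMIs. Dkk1 was at 8.15 CPM in the 938 cells with Eomes, a streak and endoderm T-box gene, and 3.23 CPM in the 2457 cells without it (2.53-fold, 1.92 to 3.32), the 1 member past 1.5-fold there, where 0.441% of genes were higher and 0.406% lower. Dkk1 reached 5 CPM in the cells with Eomes alone. Rspo3 was at 22.6 CPM in cells with Eomes and 18.8 CPM in cells without it (1.204-fold, 1.05 to 1.38). In the 670 cells with Cdx2, a posterior homeobox gene, Dkk1 was at 1.81 CPM and in the 2725 cells without it at 5.27 CPM (0.344-fold, 0.196 to 0.565). Rspo3 was at 29.1 CPM in cells with Cdx2 and 17.6 CPM in cells without it (1.66-fold, 1.43 to 1.91), where 1.08% of genes were higher and 0.591% lower. So Rspo3 was higher and Dkk1 lower in Cdx2-positive cells. In the 286 cells with Gsc, an anterior streak homeobox gene, Rspo3 was at 38.0 CPM and Wnt4 at 9.24 CPM, against 18.2 and 18.7 CPM in the 3109 cells without it (2.09-fold and 0.495-fold). Dkk1 was at 6.74 CPM in cells with Gsc and 4.39 CPM in cells without it, a ratio of 1.54 whose interval of 0.987 to 2.31 held 1. Over all genes 2.61% were higher and 3.58% lower with Gsc.

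Within single cells Wnt6 was detected more often beside Wnt4. Wnt6 was detected in 34.3% of the 1078 PHD2-KO cells with Wnt4 (31.5 to 37.2) and 20.1% of those without it (19.0 to 21.2). The same pair in WT gave 12.3% of cells with Wnt4 (10.7 to 14.1) and 5.63% of cells without it. Wnt3 was detected in 35.7% of PHD2-KO cells with Wnt4 and 35.8% of those without it, and in WT in 17.4% of cells with Wnt4 (15.6 to 19.4) and 14.1% of cells without it (13.3 to 15.02). Rspo3 was detected in 12.99% of PHD2-KO cells with Wnt4 and 23.2% of those without it. Dkk1 was detected in 10.9% of PHD2-KO cells with Rspo3 and 5.15% of those without it, but among cells with 6 or more Mesp1 UMIs these shares were 20.3% (16.1 to 24.97) and 19.1% (15.6 to 23.1). Among cells with 0 T and 0 Mesp1 UMIs they were 19.05% of the 42 cells with Rspo3 (8.60 to 34.1) and 4.22% of those without it (2.90 to 5.90). The pair was thus detected together more often beyond counting error in that state, and not in the Mesp1-high cells.

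Across the 12 states the members followed different genes. These Pearson correlations of log2 levels describe 12 states of 1 library, which share its depth and ambient RNA, and cover 8422 genes. Rspo3 followed Hmgb3, Evx1os and Hoxb1 most closely (r from 0.972 to 0.953), and Dkk1 followed Ccdc86, Pmp22 and Slc38a4 (0.971 to 0.961). Wnt4 followed Steap1, Prph and Ciapin1 (0.970 to 0.951), and Lef1 followed Pop5, Cldnd1 and Zfp36l2 (0.983 to 0.960). Sp5 followed 2410015M20Rik, Simc1 and Hnrnpa1 (0.972 to 0.969), and Axin2 followed Baz2b, Cdca7l and Ube2e2 (0.954 to 0.909). Wnt3 followed Atp5j2, Mrps36 and Cxxc5 (0.943 to 0.930), and Wnt6 followed Atp5g2, Cxx1a and Gtf3c6 (0.923 to 0.897). A high r does not give the size of a change. Over the states Atp5g2 spanned 1193 to 1247 CPM, Atp5j2 777 to 876 CPM and 2410015M20Rik 294 to 339 CPM, whereas Hoxb1 spanned 4.01 to 61.7 CPM. Each is picked as the closest of 8422 genes over 12 states, and how high r would be by chance was not tested. Among the members themselves Rspo3 and Sp5 had the highest r (0.929) and Wnt4 and Rspo3 the lowest (-0.88), while Dkk1 and Rspo3 had 0.040.

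The other genes of the pathway, a list of 87 grouped by role, differed less than the members. Members and list were both chosen with earlier results of these data known, which limits this comparison as well. Of the 42 measured at 5 CPM or more, 17 were at least 1.5-fold higher in PHD2-KO cells and 3 lower, with a median log2 ratio of 0.39. All 3 measured ligands were higher: Wnt5a was at 6.35 CPM in PHD2-KO cells and 0.367 CPM in WT cells (17.3-fold), Wnt8a at 12.6 and 2.31 CPM (5.43-fold) and Wnt5b at 17.6 and 3.48 CPM (5.06-fold). These 3 reached 5 CPM through the PHD2-KO library alone, so their count only restates their folds. Others of the 17 also reached it through PHD2-KO alone, Fzd10, Ror2, Znrf3, Nkd1 and Cdx2 among them, and Sfrp1 through WT alone. Wls, which carries Wnt proteins to the surface, was 2.59-fold higher. Among 6 receptors, Fzd10 (14.1 and 3.17 CPM, 4.45-fold) and Ror2 (7.57 and 2.67 CPM, 2.84-fold) were higher, while Ryk, Lrp6, Fzd2 and Fzd7 lay between 1.35-fold and 0.777-fold. Of the R-spondin branch Znrf3, a ubiquitin ligase that removes Frizzled, was 1.68-fold higher, and the receptor Lgr4 was at 14.2 CPM in PHD2-KO and 15.7 CPM in WT cells.

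Components inside the cell were counted by role, beside 11.8% of all genes higher and 2.35% lower. Differences between roles were not tested. Of 10 measured genes of the destruction complex and signal transduction 2 were higher, Gsk3b (1.69-fold) and Amer1 (1.62-fold), and beta-catenin itself (Ctnnb1) was at 89.2 CPM in PHD2-KO and 70.2 CPM in WT cells (1.27-fold). Of 10 nuclear factors 5 were higher, led by Tcf7 (29.0 and 15.4 CPM, 1.89-fold), and Tcf7l1, known as a repressor of Wnt targets in stem cells, was lower at 16.9 CPM in PHD2-KO and 32.2 CPM in WT cells (0.526-fold). The secreted antagonist Sfrp1 was at 2.61 CPM in PHD2-KO and 6.64 CPM in WT cells (0.392-fold), opposite to Dkk1, and Sfrp2 at 6.53 and 8.01 CPM. Among 8 targets and feedback genes Cdx2 (12.6-fold), Fgf8 (4.40-fold) and Nkd1 (2.98-fold) were higher, Myc was lower at 7.54 CPM in PHD2-KO and 11.7 CPM in WT cells (0.643-fold), and Ccnd1 was level (1.08-fold). Under median-of-ratios scaling 12 of the 42 were higher and 4 lower.

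**Figure D4:**
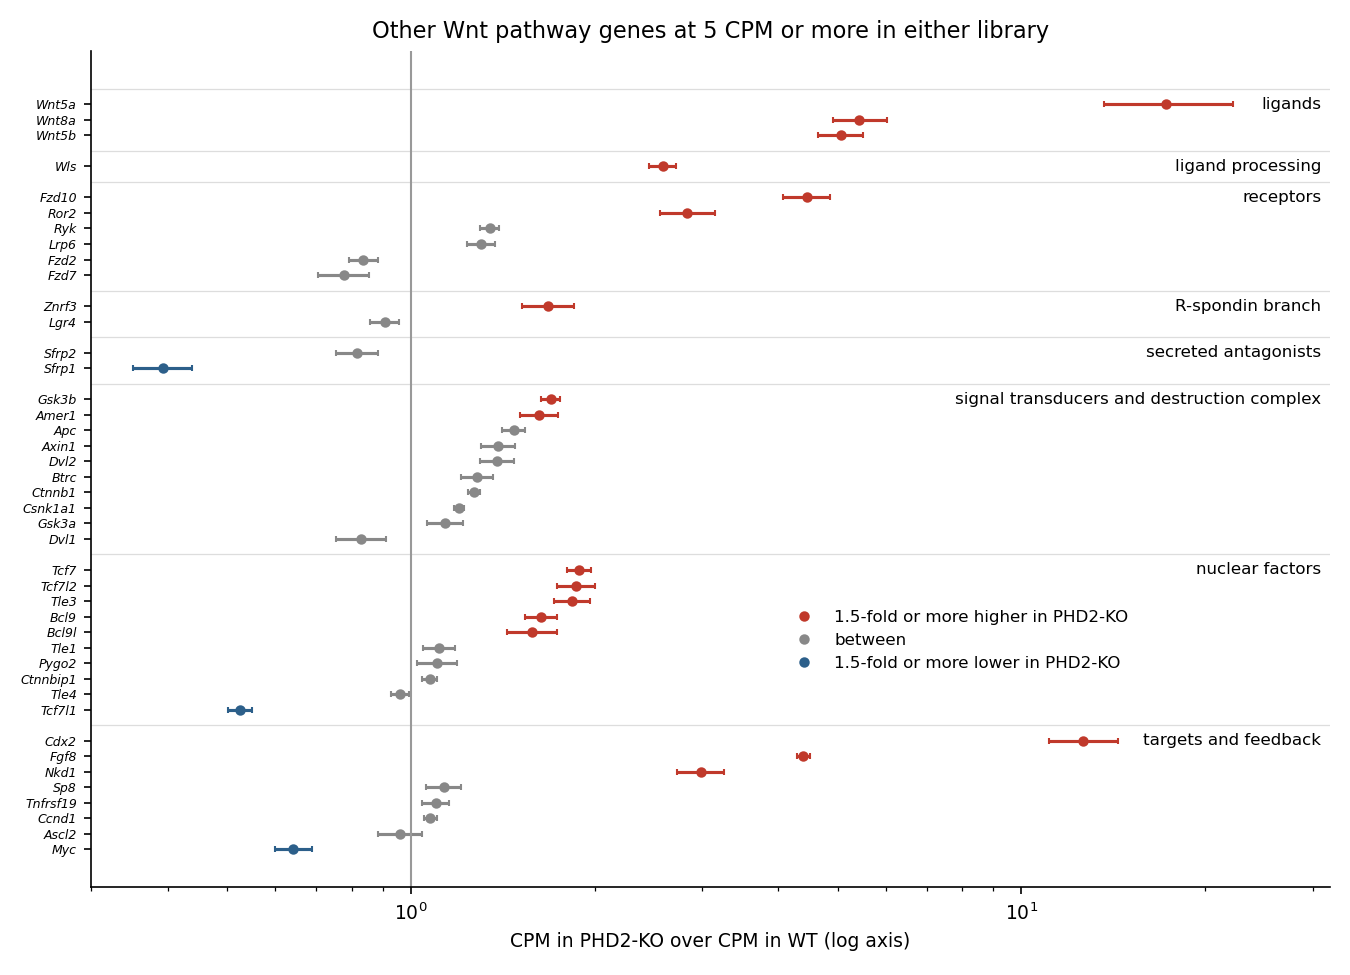
CPM in PHD2-KO over CPM in WT on a log axis for the 42 other pathway genes at 5 CPM or more in either library, grouped by role, with 95% counting intervals. Red points are 1.5-fold or more higher, blue points 1.5-fold or more lower and grey points between. The 3 ligands, each under 5 CPM in WT, lie at 5.06-fold or above, and Sfrp1, Tcf7l1 and Myc are the blue points, at 0.392, 0.526 and 0.643.

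The other pathway genes were then followed across the same states. In T-high PHD2-KO cells 8 of 41 measured pathway genes were higher and 3 lower than in cells without T, among them Wnt5b (21.9 and 8.29 CPM), Wnt8a (18.7 and 8.29 CPM) and Cdx2 (26.7 and 5.62 CPM), all higher, where 3.66% of all genes were higher and 3.78% lower. In Mesp1-high cells 10 of 46 were higher and 6 lower than in cells without Mesp1, where 4.29% of all genes were higher and 10.7% lower, so the count of lower genes was near that of all genes. The ligand Wnt2 was at 13.3 CPM in Mesp1-high cells (123 UMIs) and 0.400 CPM in cells without Mesp1 (19 UMIs), 33.2-fold higher (20.4 to 57.0). The secreted antagonist Frzb was at 20.8 CPM in Mesp1-high cells and 0.652 CPM in cells without Mesp1, 31.9-fold higher (21.8 to 48.3). Wnt5a was at 21.04 CPM in Mesp1-high cells and 3.64 CPM in cells without Mesp1, and Wnt5b at 27.5 and 17.9 CPM (1.54-fold), whereas Wnt8a was at 6.47 and 15.7 CPM. In the Mesp1-high state the ligands Wnt2, Wnt5a and Wnt5b were thus higher while Wnt4 and Wnt8a were lower. Wnt2, Wnt5a, Frzb, Fzd7 and Nkd2 reached 5 CPM in Mesp1-high cells alone, so for them the count of 10 only restates their fold. Of the 6 lower genes, Porcn, Dvl1 and Ascl2 reached it in cells without Mesp1 alone, which limits that count likewise. In the comparison by T, Ror2 (higher) reached 5 CPM in T-high cells alone and Bmp4 (lower) in cells without T alone. In cells with 0 T and 0 Mesp1 UMIs 13 of 41 pathway genes were higher in PHD2-KO than in WT and 3 lower (Fzd7, Sfrp1 and Myc), where 14% of all genes were higher and 1.61% lower. Some of the 13, Wnt5b, Wnt8a and Cdx2 among them, reached 5 CPM in PHD2-KO alone, and Fzd7 and Sfrp1 in WT alone.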

How the data were processed

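Single-cell RNA was measured in 1 PHD2-KO and 1 WT library. The deposited values are whole-number UMI counts per gene and cell, not normalized, and per the file headers they come from Cell Ranger 4.0.0. Per the submitters' processing notes, mm10 and Seurat were used as well. The sources used here state no settings of these tools. The members, lists, states and limits were chosen with earlier results of these data known.

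From the 7713 PHD2-KO and 9651 WT deposited barcodes, cells with at least 1000 genes and at most 10% mitochondrial UMIs were kept. Scrublet's automatic threshold called 0 doublets in each library, so the highest scores were removed at 0.8% per 1000 barcodes (456 and 712). The 22 barcodes found in both libraries were kept. For shares and states each cell was thinned to 14000 UMIs, which left out 646 PHD2-KO and 777 WT cells. States were defined by T and Mesp1 UMIs per thinned cell. A gene was measured at 5 CPM in the higher group and called at 1.5-fold. Levels have exact Poisson intervals, folds conditional binomial ones and shares Clopper-Pearson ones, all at 95%. For a count of 0 the limit given is the share that 3 counts would make. With 1 library per group no test was run. Chromosome 8 and 11 shares were split by a mixture of 2 components (chromosomes from GENCODE M21). The splits that keep cells of low chromosome 8 share, and those of the states, were added after seeing the data. Besides the members and the state genes, named genes were, per role, up to 3 with the largest and 3 with the smallest ratio and the most abundant one, the 3 most like each member, markers, and Eomes, Cdx2 and Gsc. Calculations used Python 3.11.15, numpy 2.4.6, scipy 1.17.1, scanpy 1.11.5 and scikit-learn 1.9.0, and the level script was tested on simulated data.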

Additional observations from a re-analysis of the deposited data

How the results depend on the processing

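Over 60 results, 285 of 390 alternative values stayed within 1.5 times (counts) or within the counting interval (single genes), 104 moved and 1 reversed. The reversed value was Rspo3 between PHD2-KO and WT cells with 0 T and 0 Mesp1 UMIs, at 0.873-fold with the cells of high chromosome 8 share left out. Other pathway genes higher in PHD2-KO numbered 27 with a 1 CPM minimum, 42 with no filter on low values and 9 at 2-fold, against 17. Those lower numbered 10 with no filter and 1 at 2-fold, against 3. Members higher in T-high cells numbered 1 when cells were thinned to 8000 UMIs and 1 at 2-fold, against 3. The causes were not tested. The 7 members higher in PHD2-KO were also 7 under median-of-ratios size factors and without either chromosome 8 group. No paired analysis was possible because each group is 1 library, and for the same reason no replicate could be left out. Genes under 5 CPM, Wnt3a and Lgr5 among them, were too sparse to be followed across states.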

Other observations

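The 40 PHD2-KO cells that had a Dkk1 UMI but 0 T and 0 Mesp1 UMIs were looked at after their values were seen. They had Mixl1, a streak homeobox gene, at 105 CPM, against 14.9 CPM in the 761 cells of that state without Dkk1 (7.06-fold, 5.14 to 9.57). Eomes was at 111 CPM in cells with Dkk1 and 19.7 CPM in cells without it (5.62-fold, 4.16 to 7.49), and Gsc at 26.8 and 2.44 CPM (15 and 26 UMIs). Pmp22, which also followed Dkk1 across the 12 states, was at 51.8 CPM in cells with Dkk1 and 4.41 CPM in cells without it. The pluripotency factor Pou5f1 was at 44.6 CPM in cells with Dkk1 and 109 CPM in cells without it (0.409-fold, 0.263 to 0.606), and Dppa5a at 504 and 1317 CPM. The endoderm factor Sox17 gave 7 UMIs in cells with Dkk1 and 8 in cells without it. Of the other endoderm markers, Gata4 was at 17.9 and 1.69 CPM and Hhex gave 1.41-fold (0.371 to 3.82). Foxa2 and Cxcr4 gave 0 UMIs in cells with Dkk1. Markers of other cell types were higher too, such as Kdr (12.7-fold) and Gata3 (6.75-fold), while the intervals of Tal1 and Hand1 from the same lists held 1. The lists did not move as a whole: the streak gene Fgf8 was at 35.7 CPM in cells with Dkk1 and 56.6 CPM in cells without it (0.631-fold, 0.383 to 0.983), and the naive genes Klf4 and Klf5 gave 1.44-fold (0.515 to 3.29) and 1.17-fold (0.706 to 1.84).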
